A study of Mus musculus with 13 samples.

Results

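Transcripts of 45 lysosome and autophagy genes were followed in purified glomeruli, the filtering units of the kidney, from mice of 3 genotypes. The genes were chosen by symbol, as the rows of the deposited count table that name a cathepsin, another lysosomal hydrolase, a lysosomal membrane protein, a subunit of the lysosomal proton pump or an autophagy protein on a list of 45. All 45 were present among the 46958 genes of the table, and all 45 were among the 16738 genes that passed the filter on low counts. The LCDD group holds 4 libraries of the genotype labelled kFRA (LCDD), where LCDD stands for light chain deposition disease, in which a monoclonal immunoglobulin light chain deposits in the kidney. A further 4 libraries came from mice labelled DH-LMP2A, and 5 came from wild-type (WT) mice. All mice were 6 months old, on a background given as mixed C57/BL6x129/SVxBALB/c, and no treatment is named. Glomeruli were purified on magnetic beads, and each library pooled 3 mice except WT replicates 3, 4 and 5, which were single mice. The labels give the name DH-LMP2A without a description. As background, a DH-LMP2A allele places the viral protein LMP2A in the immunoglobulin heavy-chain locus, where it lets B cells develop without a heavy chain. Whether LCDD mice carry that allele too is not given in the labels. Levels are given in CPM, read counts scaled to the size of the library. The heavy-chain transcript Igha ran from 0.0394 to 0.263 CPM in LCDD, from 0.134 to 0.343 CPM in DH-LMP2A and from 8.74 to 56.1 CPM in WT. The series title names the question, the toxicity of LCDD light chains for glomeruli.

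Lysosomes are acidic organelles in which proteases, glycosidases, sulfatases and lipases break down material taken up from outside the cell or delivered from within it. Autophagy encloses cytoplasm in a double membrane that fuses with the lysosome. In the kidney, filtered light chains are taken up by cells and degraded in lysosomes. The transcription factors TFEB and TFE3 drive many of these genes through a short promoter element, named CLEAR, that is built around the letters CACGTG. Glomeruli contain podocytes, mesangial cells and endothelial cells, and podocytes are known for a high rate of basal autophagy.

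The CACGTG core was searched for in RefSeq promoters on GRCm38.p6, in the window from 250 bases before to 50 bases after each gene start. The motif reads the same on both strands. Promoters were matched by symbol for 39 of the 45 genes, and Ctsb, Asah1, Npc1, Atp6v1h, Map1lc3a and Becn1 had no entry. The core was present in 14 of the 39 (35.9%), in 18 of 84 other genes of the same pathway (21.4%) and in 8.09% of the 27025 genes with a promoter in that table. The longer palindrome TCACGTGA, which contains the core, was found in 6 of the 39 (15.4%). It was found in 6 of the 84 other pathway genes (7.14%) and in 1.12% of all genes with a promoter. That palindrome extended by a G before and a C after it was found in 0 of the 39. The extended form was found in 2 of the 84 (2.38%) and in 0.370% of all genes with a promoter. Stretches of 30 bases are shown for 2 genes whose expression is discussed below (Glb1 and Mcoln1), for a membrane protein with 1 of its copies (Lamp1), and for a proton pump subunit, a protease and a glycosidase that hold TCACGTGA (Atp6v1a, Ctsd and Gla). Each is written 5′ to 3′ on the strand of its gene, with the CACGTG core in capitals.
Glb1, chr9:114401018-114401047, + strand: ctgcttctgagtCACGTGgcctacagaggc
Mcoln1, first copy, chr8:3500436-3500465, + strand: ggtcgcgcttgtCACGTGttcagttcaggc
Mcoln1, second copy, chr8:3500462-3500491, + strand: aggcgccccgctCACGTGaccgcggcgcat
Lamp1, chr8:13159088-13159117, + strand: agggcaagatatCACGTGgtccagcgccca
Atp6v1a, chr16:44139373-44139402, - strand: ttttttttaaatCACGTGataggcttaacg
Ctsd, chr7:142387908-142387937, - strand: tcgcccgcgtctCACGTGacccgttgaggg
Gla, chrX:134601182-134601211, - strand: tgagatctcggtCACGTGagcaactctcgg
The core begins at position -48 from the RefSeq gene start in Glb1, and at -71 and -45 in Mcoln1. Of the 21 copies in these genes, 20 begin before the gene start, and 5 genes hold more than 1 copy. The Ctsk promoter window did not contain these letters. A match describes the letters only and was not tested as a binding site.

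Total counts per library ran from 16687509 to 30587890, and the 45 genes took between 0.739% and 0.941% of them. A floor of 3 counts corresponds to 0.0981 to 0.180 CPM, for counting error only, and every one of the 45 genes lay above it in every library. All 8 podocyte markers were detected in all 13 libraries, with a summed level of 7099 to 33478 CPM over the libraries, beside 97.7 to 3220 CPM for 10 proximal tubule markers. The sex of the mice is not given. The Y-linked gene Ddx3y was at 83.4, 11.2, 100.03 and 8.23 CPM in LCDD replicates 1 to 4, at 51.1, 89.0, 25.2 and 53.8 CPM in DH-LMP2A replicates 1 to 4, at 11.8 CPM in WT 2 and at 0 or 1 count in the other WT libraries. Xist, transcribed from the inactive X chromosome of females, ran from 0.484 to 1003 CPM in LCDD, from 39.8 to 1014 CPM in DH-LMP2A and from 540 to 1589 CPM in WT. These levels varied within each genotype, differed between LCDD and DH-LMP2A libraries of the same title code, and overlapped between LCDD and WT. Between DH-LMP2A and WT, Ddx3y did not overlap and was higher in every DH-LMP2A library, whereas Xist overlapped. The part of sex in the results was not tested. A number in the library titles, the title code, is shared by libraries of different genotypes, and its meaning is not given. There are 4 codes, called A to D here in the order of the numbers. LCDD and DH-LMP2A have 1 library under each code, with replicates 1 to 4 under A to D. WT 1 carries A, WT 2 carries C and WT 3 to 5 carry D. Because these are bulk samples, fewer cells of a type and less RNA per cell cannot be told apart.

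Most of the 45 genes were abundant in glomeruli. Per kilobase of exon, their median level was 34.1 CPM, compared with 5.34 CPM over all genes tested, and 22 of the 45 were among the top 10% of genes. The top 1% held 3 of them: Ctsl, which encodes the cysteine protease cathepsin L, at 346 CPM per kilobase, Psap, the precursor of the saposins that assist sphingolipid breakdown, at 324, and Lamp1, a major glycoprotein of the lysosomal membrane, at 278. The lowest level was that of Ctsk, the collagen-degrading cysteine protease cathepsin K, at 3.15 CPM per kilobase. The transcription factors were also in the lower part of the list, with Tfe3 at 6.04 and Tfeb at 4.72 CPM per kilobase.

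**Figure D1:**
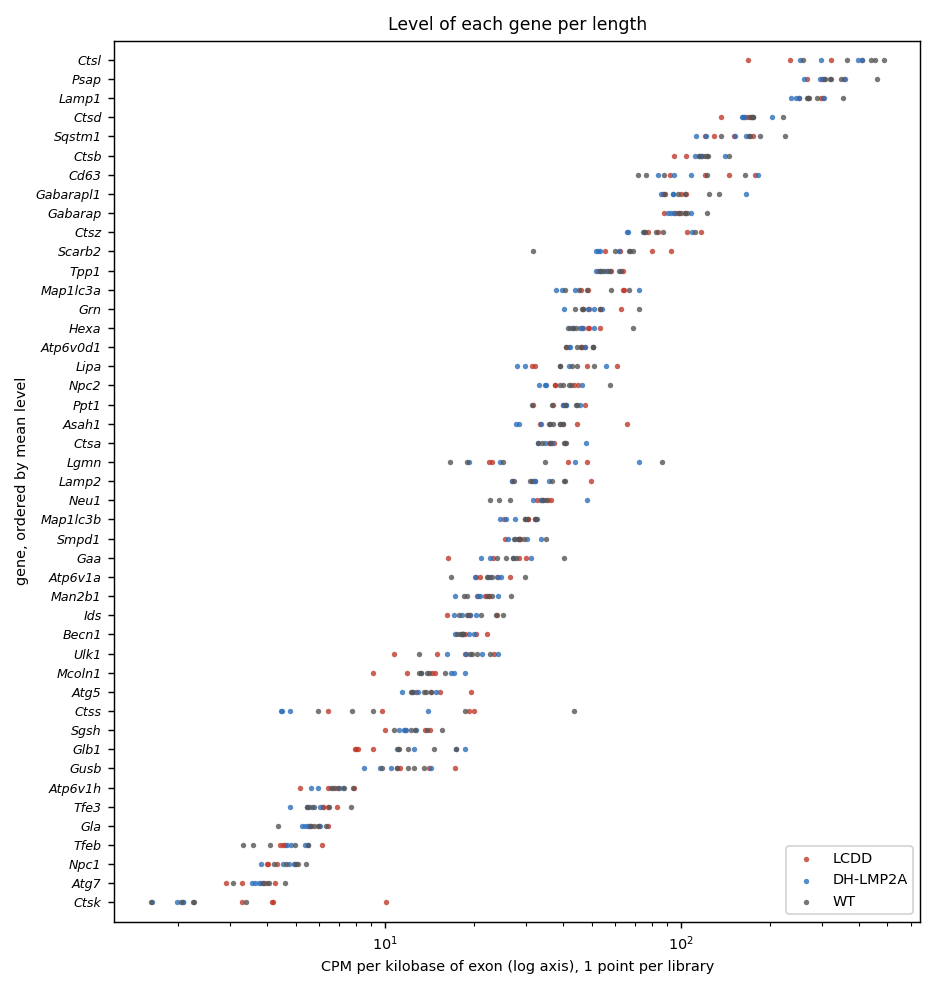
Level of each of the 45 genes in CPM per kilobase of exon (horizontal log axis), with 1 point per library coloured by genotype and genes ordered by their mean. Ctsl, Psap and Lamp1 are at the top, Ctsk is at the bottom, and the points of the 3 genotypes lie among each other for most genes.

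The genes were also steadier than most across libraries. Their median standard deviation of log2 CPM over the 13 libraries was 0.21, compared with 0.35 over all genes tested. Only 3 of the 45 exceeded 0.5, namely Ctss, the antigen-processing protease cathepsin S (1.01), Lgmn, the asparaginyl endopeptidase legumain (0.76), and Ctsk (0.72). The background of all genes was not matched for level, and the median level of the 45 was higher. The title code accounted for more of the variance than genotype in 31 of the 45 genes (68.9%), a share close to the 63.5% of all genes tested. The adjusted share for the code was 79.7% for Lgmn, 75.9% for Ulk1, a kinase that starts autophagy, 72.9% for Atp6v1a, the catalytic subunit of the proton pump, 72.2% for Cd63, a tetraspanin of late endosomes, and 67.1% for Ctsl. The genotype share was largest for Glb1, which encodes the lysosomal beta-galactosidase (60.2%), and for Ctsk (58.7%).

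Lgmn ran from 96.8 to 201 CPM in the 3 libraries under code A, from 102 to 112 under B, from 52.3 to 80.7 under C and from 38.6 to 58.2 under D. Ulk1 ran the other way, from 69.8 to 106 CPM under A and from 147 to 157 under C. Ctsl ran from 334 to 588 CPM under A and from 808 to 870 under C. Every library under codes A and B was above every library under C and D for Lgmn (at least 96.8 beside at most 80.7 CPM) and below them for Ctsl (at most 588 beside at least 634 CPM). Codes A, C and D each hold all 3 genotypes. Summed proximal tubule markers also differed by code, at 1510 to 3220 CPM in the libraries under A and 97.7 to 644 CPM in those under D. Podocyte markers summed to 7099 to 15972 CPM under A and 24577 to 33478 CPM under D. In LCDD 1 to 4 they summed to 7099, 13000, 30658 and 25707 CPM. In DH-LMP2A 1 to 4 the sums were 15972, 20626, 31207 and 30422.5 CPM, and under A WT 1 was at 14836 CPM. The median log2 fold change of the 8 podocyte markers was -0.45 in LCDD against DH-LMP2A, with 0 called. Against WT it was -0.53, with 1 called lower, Ptpro (beside 0.544% of all genes). The part of these cell types in the code ranges was not tested.

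**Figure D2:**
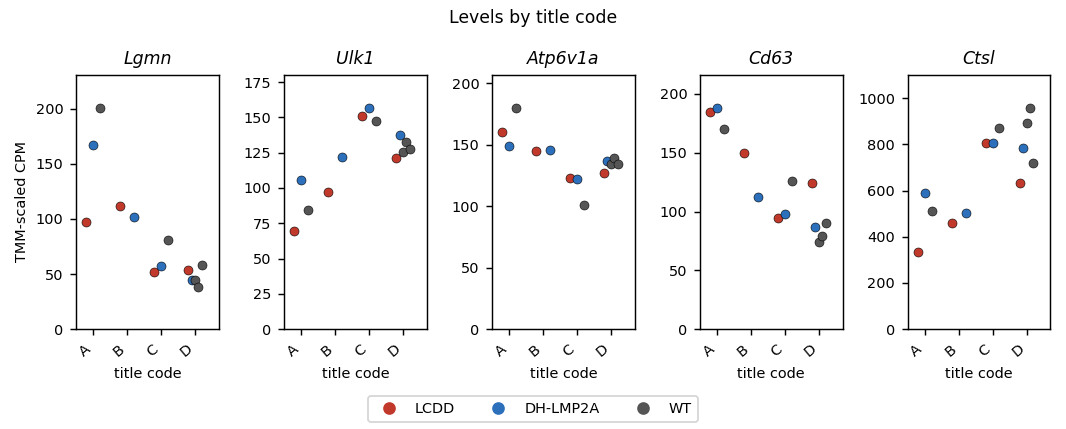
TMM-scaled CPM of the 5 genes with the largest share of variance for the title code, by code on the horizontal axis and with 1 point per library coloured by genotype. For Lgmn every library under A and B lies above every library under C and D (at least 96.8 beside at most 80.7 CPM), and for Ctsl below them (at most 588 beside at least 634 CPM).

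Few of the 45 genes differed between genotypes. In LCDD against DH-LMP2A, edgeR's quasi-likelihood test called 2 of the 45 (4.44%) at a Benjamini-Hochberg adjusted p below 0.05, beside 2% of all genes tested. Ctsk rose, beside 1.3% of all genes called higher, and Glb1 fell, beside 0.693% called lower. With the title code as a block, 4 of the 45 (8.89%) were called, beside 6.1% of all genes, and the additional genes were Asah1, the acid ceramidase, called higher, and Mcoln1, the lysosomal calcium channel mucolipin 1, called lower. At an unadjusted p below 0.05 there were 4 of 45 (8.89%), beside 13.1%. With 2 genes of 45, the share is near the background and is not read as a result about the 45 genes as a set.

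In LCDD against WT, edgeR called 0 of the 45 genes, beside 1.84% of all genes tested (0.544% lower). At an unadjusted p below 0.05 there were 2 of the 45 (4.44%), beside 12%. With the title-code block 1 gene was called, Glb1, beside 3.2% of all genes, and DESeq2 called 2, Ctsk and Glb1. In DH-LMP2A against WT, 0 of the 45 were called by edgeR, beside 0.627% of all genes tested, and 0 were called with the block (beside 3.36%) and by DESeq2. At an unadjusted p below 0.05 there was 1 of 45 (2.22%), Neu1, beside 12.5%. The 3 comparisons share libraries in pairs and are not independent of each other.

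Fold changes of the 45 genes were small. The absolute log2 fold change was below 0.5 in 41 of 45 genes for LCDD against DH-LMP2A, beside 76.8% of all genes tested, in 42 for LCDD against WT, beside 81.9%, and in 44 for DH-LMP2A against WT, beside 79.1%. Here too the background was not matched for level. The median log2 fold change was 0.06 in LCDD against DH-LMP2A (all genes -0.01), -0.04 in LCDD against WT (all genes 0.01) and -0.10 in DH-LMP2A against WT (all genes 0.00). The groups did not overlap for 3 of the 45 genes in LCDD against DH-LMP2A (6.67%, beside 7.62% of all genes): Ctsk and Tfe3 were higher (beside 4.74% of all genes) and Glb1 was lower (beside 2.89%) in every LCDD library. In LCDD against WT this held for 2 genes (4.44%, beside 4.59%), Becn1 higher (beside 2.97%) and Glb1 lower (beside 1.63%). In DH-LMP2A against WT it held for 0 genes, beside 4.97% of all genes (2.64% higher and 2.33% lower).

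**Figure D3:**
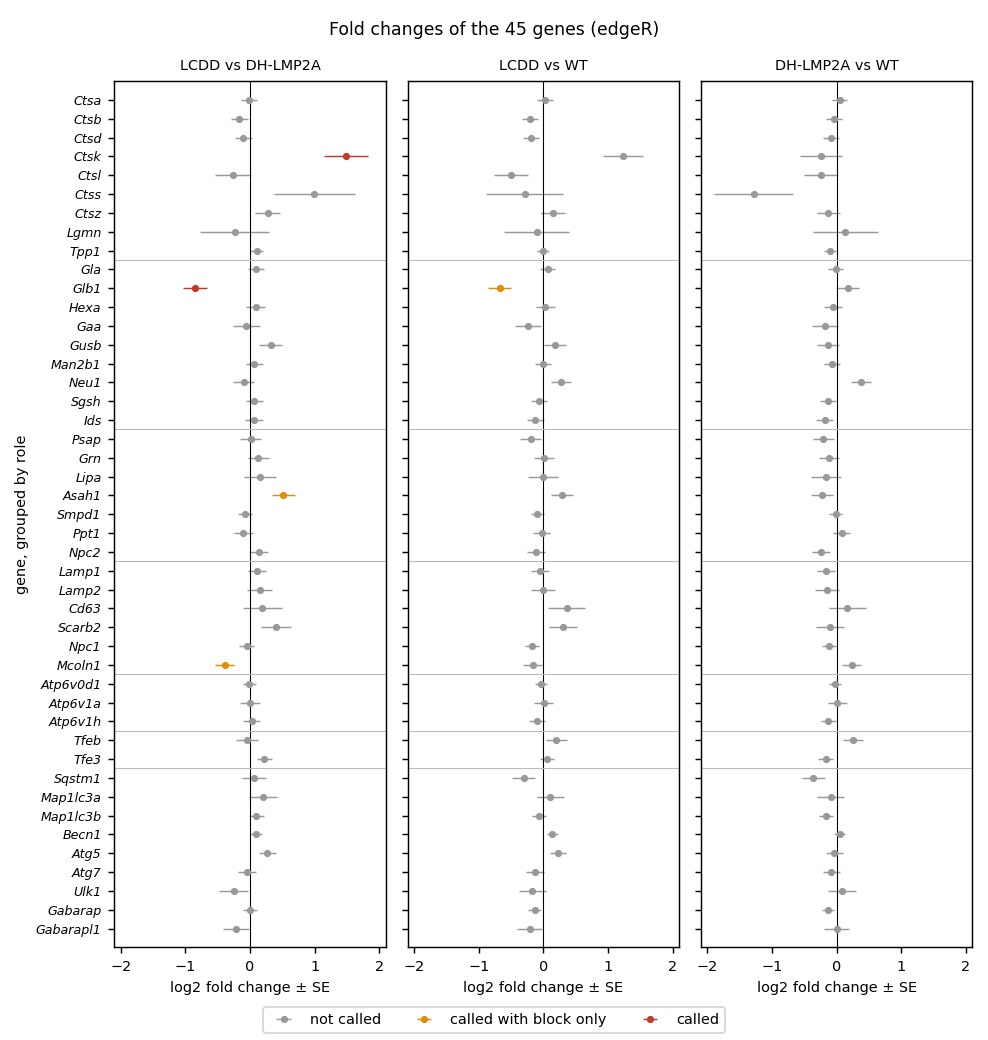
Log2 fold change with its standard error (horizontal axis) for each of the 45 genes, grouped by role, in the 3 comparisons from edgeR. Red marks genes called without a block (Ctsk and Glb1 in LCDD against DH-LMP2A), orange those called only with the title-code block, and grey the rest, most of which lie within 0.5 of 0.

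Among the 9 lysosomal proteases, 1 was called in LCDD against DH-LMP2A (Ctsk, higher), and 0 were called in the comparisons with WT, with the title-code block included. The median log2 fold change of the 9 was -0.02 in LCDD against DH-LMP2A, -0.10 in LCDD against WT and -0.11 in DH-LMP2A against WT. Ctsk (chromosome 3, 95499256 to 95509362, + strand) was measured at 15.2, 6.29, 4.96 and 6.31 CPM in LCDD replicates 1 to 4. It was at 3.14, 3.00, 2.46 and 3.13 CPM in DH-LMP2A replicates 1 to 4, and at 3.40, 5.13, 2.44, 3.09 and 3.41 CPM in WT replicates 1 to 5. Every LCDD library was above every DH-LMP2A library, LCDD 1 was far above the rest, and LCDD 3 was below WT 2. The mean level was 8.19 ± 4.71 CPM in LCDD (SD, n = 4), 2.93 ± 0.325 CPM in DH-LMP2A (SD, n = 4) and 3.49 ± 0.995 CPM in WT (SD, n = 5). Against DH-LMP2A, Ctsk was 2.79-fold higher in LCDD (log2 fold change 1.48 ± 0.34 SE, edgeR adjusted p = 0.0441). Within the 4 title codes the log2 difference was 2.24, 1.05, 0.99 and 0.99.

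The Ctsk call was close to the threshold, and leaving out 1 library of either genotype ended it in most cases. Without LCDD 1 the log2 fold change was 0.995 and the edgeR adjusted p was 0.0900. The adjusted p was 0.0718 without LCDD 2, 0.0590 without LCDD 4, and 0.0578, 0.134, 0.134 and 0.121 without DH-LMP2A 1, 2, 3 and 4, and the call stood only without LCDD 3. Against WT, Ctsk was not called (log2 fold change 1.23 ± 0.31 SE, edgeR adjusted p = 0.0716). Without LCDD 1 it was 0.75. It passed without LCDD 3 (1.41, adjusted p = 0.0424) and without WT 2 (1.37, adjusted p = 0.0444), and by DESeq2 (1.21, adjusted p = 0.00970). In DH-LMP2A against WT the log2 fold change was -0.25 ± 0.32 SE (edgeR adjusted p = 0.789).

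The levels of 2 cell types' markers stand beside those of Ctsk. The 6 mesangial markers, all detected in every library, summed to 8191, 5009, 4116 and 5598 CPM in LCDD replicates 1 to 4, to between 2767 and 3723 CPM in DH-LMP2A and to between 3360 and 4149 CPM in WT. Of the 6, Serpine2, Sfrp2 and Ptn were called higher in LCDD than in DH-LMP2A. The 12 macrophage and monocyte markers summed to between 380 and 686 CPM in LCDD, 234 and 451 CPM in DH-LMP2A and 435 and 539 CPM in WT, with C1qc at 0 in a DH-LMP2A library and 0 of the 12 called. The part of either cell type in the Ctsk difference was not tested.

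**Figure D4:**
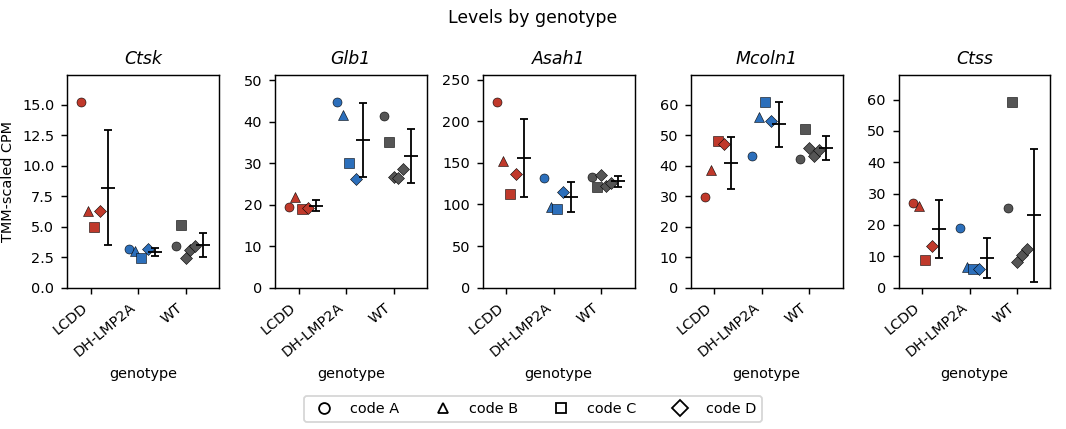
TMM-scaled CPM of Ctsk, Glb1, Asah1, Mcoln1 and Ctss by genotype, with 1 point per library, the shape of a point giving its title code and bars giving the mean and SD. LCDD libraries lie above DH-LMP2A for Ctsk and below both other genotypes for Glb1, whereas Ctss overlaps between genotypes, with WT 2 at the top.

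Ctss varied most of the 45 genes. It was at 27.1, 26.0, 8.73 and 13.3 CPM in LCDD, at 19.0, 6.48, 6.05 and 6.09 CPM in DH-LMP2A and at 25.3, 59.1, 8.09, 10.5 and 12.4 CPM in WT, in replicate order. The groups overlapped, with the highest value in WT 2. The log2 fold change was 0.997 ± 0.63 SE in LCDD against DH-LMP2A (edgeR adjusted p = 0.565), -0.29 ± 0.59 in LCDD against WT (0.937) and -1.29 ± 0.61 in DH-LMP2A against WT (0.417). Averaged over the 12 macrophage and monocyte markers, log2 CPM was 4.69 in WT 2 and between 2.07 and 2.99 in the other WT libraries, and the part of these cells in the Ctss level was not tested.

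Ctsl, the most abundant of the 45 per length, was at 334, 460, 808 and 634 CPM in LCDD, at 588, 501, 808 and 786 CPM in DH-LMP2A and at 511, 870, 894, 959 and 720 CPM in WT. The groups overlapped, and the lowest value of each genotype was in a library under code A or B. The log2 fold change was -0.26 ± 0.28 SE in LCDD against DH-LMP2A (edgeR adjusted p = 0.759) and -0.50 ± 0.27 in LCDD against WT (0.519). The other proteases were not called. Ctsd and Ctsb, the aspartic and cysteine proteases that carry much of lysosomal proteolysis, had log2 fold changes of -0.10 ± 0.14 and -0.17 ± 0.13 SE in LCDD against DH-LMP2A.

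Among the 9 glycosidases and sulfatases, Glb1 was called lower in LCDD than in DH-LMP2A. It was the 1 gene of the 45 for which the LCDD libraries lay below all libraries of both other genotypes. Of all genes, 2.89% lay below DH-LMP2A in this way and 1.63% below WT. The share below both was not taken, so this is not read as particular to Glb1. Beta-galactosidase removes terminal galactose from gangliosides and glycoproteins, and its loss causes GM1 gangliosidosis. Glb1 (chromosome 9, 114401076 to 114474376, + strand), whose promoter stretch is shown above, was at 19.5, 21.8, 18.9 and 19.1 CPM in LCDD. It was at 44.7, 41.6, 30.03 and 26.2 CPM in DH-LMP2A and at 41.5, 35.1, 26.6, 26.5 and 28.7 CPM in WT. The LCDD libraries were close to each other, while the other libraries spread over a wider range above them. The means were 19.8 ± 1.32 CPM in LCDD (SD, n = 4), 35.6 ± 8.90 CPM in DH-LMP2A (SD, n = 4) and 31.7 ± 6.50 CPM in WT (SD, n = 5). The 10 proximal tubule markers summed to 1510, 1510, 490 and 644 CPM in LCDD. Their sums were 3220, 2749, 1139 and 417 CPM in DH-LMP2A, and 2244, 194, 177, 97.7 and 349 CPM in WT. Their median log2 fold change was -0.91 in LCDD against DH-LMP2A and 0.24 in LCDD against WT, with 0 called. The part of tubule cells in the Glb1 levels was not tested.

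Glb1 was 1.80-fold lower in LCDD than in DH-LMP2A (log2 fold change -0.85 ± 0.19 SE, edgeR adjusted p = 0.0381; -0.81 and 0.00570 with the block). Within the 4 title codes the log2 difference was -1.20, -0.93, -0.67 and -0.46. Leaving out 1 library ended the call in 7 of 8 cases, with an adjusted p of 0.0961, 0.0814, 0.0647 and 0.0935 without LCDD 1 to 4, and 0.0623, 0.149 and 0.0631 without DH-LMP2A 1, 2 and 3. Against WT the log2 fold change was -0.68 ± 0.18 SE (edgeR adjusted p = 0.0838), and it was called with the block (-0.81, adjusted p = 0.00848). Within the 3 codes that WT shares, the LCDD to WT difference was -1.09, -0.89 and -0.51. DH-LMP2A and WT were near each other, at a log2 difference of 0.17 ± 0.18 SE (edgeR adjusted p = 0.727).

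Glb1 overlaps Tmppe, a gene on the same strand that begins within it. Tmppe was at 25.7, 28.4, 34.5 and 33.4 CPM in LCDD, and at 29.1, 35.3, 31.2 and 31.0 CPM in DH-LMP2A. Its log2 fold change was -0.055 in LCDD against DH-LMP2A (edgeR adjusted p = 0.901) and -0.044 against WT (0.959). How the counting treated reads that match both genes is not given in the sources used here, so the Glb1 counts are uncertain by that share. The counts of Ppt1, Map1lc3b and Npc1 are uncertain in the same way, because genes on the opposite strand that overlap them reach 8424, 4664 and 939 counts and the strand setting is not given.

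Hexa, the alpha subunit of the hexosaminidase that acts after beta-galactosidase on gangliosides, was the most abundant gene of this role per length. It was at 99.1, 90.9, 86.2 and 91.4 CPM in LCDD, at 94.9, 78.9, 85.5 and 87.2 CPM in DH-LMP2A and at 77.7, 128, 80.4, 80.4 and 82.5 CPM in WT. LCDD and DH-LMP2A overlapped. WT 2 was the highest library of all, and the other WT libraries were below every LCDD library. The log2 fold change was 0.09 ± 0.15 SE in LCDD against DH-LMP2A (edgeR adjusted p = 0.863). Neu1, the lysosomal sialidase, had the largest log2 fold change of the 45 in DH-LMP2A against WT, at 0.38 ± 0.16 SE (edgeR adjusted p = 0.346). It was at 126, 122, 133 and 136 CPM in LCDD, at 180, 128, 126 and 119 CPM in DH-LMP2A and at 127, 131, 90.6, 84.4 and 98.8 CPM in WT. The 3 single-mouse WT libraries, all under code D, were the lowest. For the other genes of this role, namely Gla, Gaa, Gusb, Man2b1, Sgsh and Ids, 0 were called in any comparison.

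Among the 7 genes of lipid breakdown and transport in the lysosome lumen, 0 were called without the block. Their median log2 fold change was 0.13 in LCDD against DH-LMP2A, -0.02 in LCDD against WT and -0.16 in DH-LMP2A against WT. Asah1, which splits ceramide into sphingosine and a fatty acid, was at 223, 152, 113 and 136 CPM in LCDD, at 132, 96.5, 94.0 and 115 CPM in DH-LMP2A and at 133, 122, 136, 123 and 126 CPM in WT. LCDD 1 and LCDD 2 were above all other libraries, and the lower LCDD libraries overlapped DH-LMP2A and WT. The 6 mesangial markers, of which 3 were called higher in LCDD than in DH-LMP2A and none was at 0, summed to 8191, 5009, 4116 and 5598 CPM in LCDD, to 2767 to 3723 CPM in DH-LMP2A and to 3360 to 4149 CPM in WT, and their part in the Asah1 values was not tested. In LCDD against DH-LMP2A the log2 fold change was 0.51 ± 0.18 SE (edgeR adjusted p = 0.201), and 0.49 with the title-code block, where it was called (adjusted p = 0.0461). Within the 4 codes the log2 difference was 0.75, 0.65, 0.27 and 0.25. Against WT it was 0.29 ± 0.17 SE (edgeR adjusted p = 0.585).

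Psap differed little between LCDD and DH-LMP2A. It was at 826, 980, 831 and 732 CPM in LCDD, at 985, 810, 836 and 719 CPM in DH-LMP2A and at 885, 1263, 881, 847 and 956 CPM in WT. WT 2 was above all others, and the log2 fold change was 0.01 ± 0.17 SE in LCDD against DH-LMP2A (edgeR adjusted p = 0.990) and -0.20 ± 0.16 in LCDD against WT (0.748). Lipa, the acid lipase that frees cholesterol from its esters, Grn, the progranulin precursor, Smpd1, the acid sphingomyelinase, Ppt1, a thioesterase that removes fatty acids from proteins, and Npc2, the lumenal cholesterol carrier, were not called in any comparison.

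Among the 6 membrane proteins, 0 were called without the block and Mcoln1 was called with it, lower in LCDD than in DH-LMP2A. The median log2 fold change of the 6 was 0.13 in LCDD against DH-LMP2A, -0.03 in LCDD against WT and -0.11 in DH-LMP2A against WT. Mcoln1, which releases calcium from lysosomes and acts upstream of TFEB, was at 29.6, 38.6, 48.0 and 47.1 CPM in LCDD. It was at 43.3, 55.9, 60.8 and 54.5 CPM in DH-LMP2A and at 42.4, 52.2, 45.8, 43.1 and 45.1 CPM in WT. The groups overlapped, but under each code the LCDD library was below the DH-LMP2A library, by -0.54, -0.53, -0.34 and -0.21 on the log2 scale. The log2 fold change was -0.39 ± 0.15 SE (edgeR adjusted p = 0.265), and -0.40 with the block (adjusted p = 0.0391). In LCDD against WT it was -0.16 ± 0.14 SE (edgeR adjusted p = 0.783) and in DH-LMP2A against WT 0.23 ± 0.14 SE (0.543). The 2 copies of CACGTG in its promoter are shown above.

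Lamp1 was at 686, 672, 566 and 610 CPM in LCDD, at 690, 569, 534 and 553 CPM in DH-LMP2A and at 655, 801, 609, 603 and 613 CPM in WT. The genotypes overlapped, with a log2 difference of 0.11 ± 0.14 SE in LCDD against DH-LMP2A (edgeR adjusted p = 0.802) and -0.05 ± 0.13 in LCDD against WT (0.956). Scarb2, the receptor that carries glucocerebrosidase to lysosomes, was at 503, 582, 350 and 391 CPM in LCDD, at 389, 324, 331 and 337 CPM in DH-LMP2A and at 198, 378, 435, 422 and 421 CPM in WT. LCDD 1 and LCDD 2 were the highest and WT 1 the lowest, and the log2 difference of 0.40 ± 0.23 SE in LCDD against DH-LMP2A was not called (edgeR adjusted p = 0.511), nor was the 0.30 ± 0.22 in LCDD against WT (0.704). Cd63 was at 184, 150, 94.9 and 125 CPM in LCDD, at 188, 112, 97.7 and 86.4 CPM in DH-LMP2A and at 170, 126, 74.2, 78.8 and 90.4 CPM in WT. Its values followed the title code, with the library under A highest in each genotype, and the log2 difference of 0.36 ± 0.29 SE in LCDD against WT was not called (edgeR adjusted p = 0.748). That value turned to -0.14 when the single-mouse WT libraries, all under D, were left out. Lamp2, which marks the lysosomal membrane and serves chaperone-mediated autophagy, and Npc1, the membrane cholesterol exporter, were not called.

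The V-ATPase pumps protons into the lysosome, and its 3 subunits on the list had the smallest fold changes of the 7 roles. Their log2 fold changes ran from -0.01 to 0.03 in LCDD against DH-LMP2A, from -0.10 to 0.01 in LCDD against WT and from -0.13 to 0.01 in DH-LMP2A against WT, with 0 called. Atp6v0d1, a subunit of the membrane sector, was at 82.9, 82.2, 73.7 and 85.1 CPM in LCDD, at 90.8, 75.6, 85.4 and 75.1 CPM in DH-LMP2A and at 82.2, 90.5, 73.4, 80.0 and 90.4 CPM in WT. All 13 libraries lay within a narrow range in which the genotypes overlapped, and the log2 fold change in LCDD against DH-LMP2A was -0.01 ± 0.10 SE (edgeR adjusted p = 0.973).

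Neither transcription factor was called in any comparison. Tfe3 was at 57.0, 57.2, 63.8 and 59.2 CPM in LCDD, at 50.6, 52.5, 55.7 and 44.3 CPM in DH-LMP2A and at 50.5, 71.0, 51.4, 53.5 and 59.9 CPM in WT. Every LCDD library was above every DH-LMP2A library, but the difference was small, at a log2 difference of 0.22 ± 0.12 SE (edgeR adjusted p = 0.453). Tfeb was at 25.6, 34.8, 24.9 and 26.1 CPM in LCDD, at 30.5, 31.1, 27.3 and 26.5 CPM in DH-LMP2A and at 28.1, 31.1, 18.7, 20.2 and 23.1 CPM in WT. The single-mouse WT libraries were the lowest, and the log2 fold change was -0.05 ± 0.17 SE in LCDD against DH-LMP2A (edgeR adjusted p = 0.935) and 0.25 ± 0.16 in DH-LMP2A against WT (0.547), which turned to -0.059 without the single-mouse WT libraries. Both factors are known to be controlled largely by their movement between cytoplasm and nucleus, which transcript counts do not measure.

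Genes with CACGTG in the promoter had median fold changes near those of the genes without it. In LCDD against DH-LMP2A the median log2 fold change was -0.03 over the 14 genes with the core and 0.10 over the 25 without. The medians were -0.09 and -0.01 in LCDD against WT, and -0.03 and -0.13 in DH-LMP2A against WT. All 6 medians lie close to 0. With the block, Glb1 and Mcoln1, both with the core, were called lower in LCDD than in DH-LMP2A. Ctsk, without the core, and Asah1, which had no promoter entry, were called higher. A link between the core and these calls was not tested.

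Among the 9 autophagy genes, 0 were called in any comparison, with or without the block. At an unadjusted p below 0.05 there were 0 without the block, beside 13.1% of all genes in LCDD against DH-LMP2A. That share of all genes was 12% in LCDD against WT and 12.5% in DH-LMP2A against WT. With the block there were 2 in LCDD against DH-LMP2A (Atg5 and Ulk1). There was 1 in LCDD against WT (Atg5) and 1 in DH-LMP2A against WT (Sqstm1). The share of all genes at this level was not taken with the block, so these counts are not read as a result. Log2 fold changes of the 9 genes ran from -0.25 to 0.27 in LCDD against DH-LMP2A. They ran from -0.31 to 0.23 in LCDD against WT and from -0.36 to 0.08 in DH-LMP2A against WT. Sqstm1, the cargo receptor p62 that is itself degraded by autophagy, was at 407, 507, 588 and 434 CPM in LCDD, at 511, 379, 559 and 409 CPM in DH-LMP2A and at 461, 758, 577, 624 and 571 CPM in WT. WT 2 was the highest and the genotypes overlapped. The log2 fold change was 0.06 ± 0.18 SE in LCDD against DH-LMP2A (edgeR adjusted p = 0.930), -0.31 ± 0.18 in LCDD against WT (0.573) and -0.36 ± 0.18 in DH-LMP2A against WT (0.425). Becn1, a subunit of the lipid kinase complex that nucleates autophagosomes, was at 157, 130, 143 and 131 CPM in LCDD and at 129, 129, 124, 127 and 130 CPM in WT. The lowest LCDD value lay above the highest WT value by less than the rounding shown, at a log2 difference of 0.14 ± 0.08 SE (edgeR adjusted p = 0.612). Map1lc3b, an LC3 protein that is attached to the autophagosome membrane, had a log2 difference of 0.10 ± 0.12 SE in LCDD against DH-LMP2A (edgeR adjusted p = 0.779). Atg5, part of the machinery that attaches LC3, had 0.27 ± 0.13 SE (0.429), and Ulk1 had -0.25 ± 0.22 SE (0.715).

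Libraries of LCDD and DH-LMP2A were also compared code by code. In 17 of the 45 genes (37.8%, beside 33.9% of all genes tested) the LCDD library differed from the DH-LMP2A library in the same direction under all 4 codes. The LCDD library was the higher one in 14 of these, among them Ctsk, Ctss, Asah1, Scarb2, Tfe3 and Atg5, and the lower one in 3, namely Glb1, Mcoln1 and Ulk1. WT has no library under B, so this count was made for LCDD against DH-LMP2A alone. The share of all genes was not taken for each direction, so the split of 14 and 3 is not read as a result. Some of the differences were near 0, such as that of Grn, which was as low as 0.009.

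**Figure D5:**
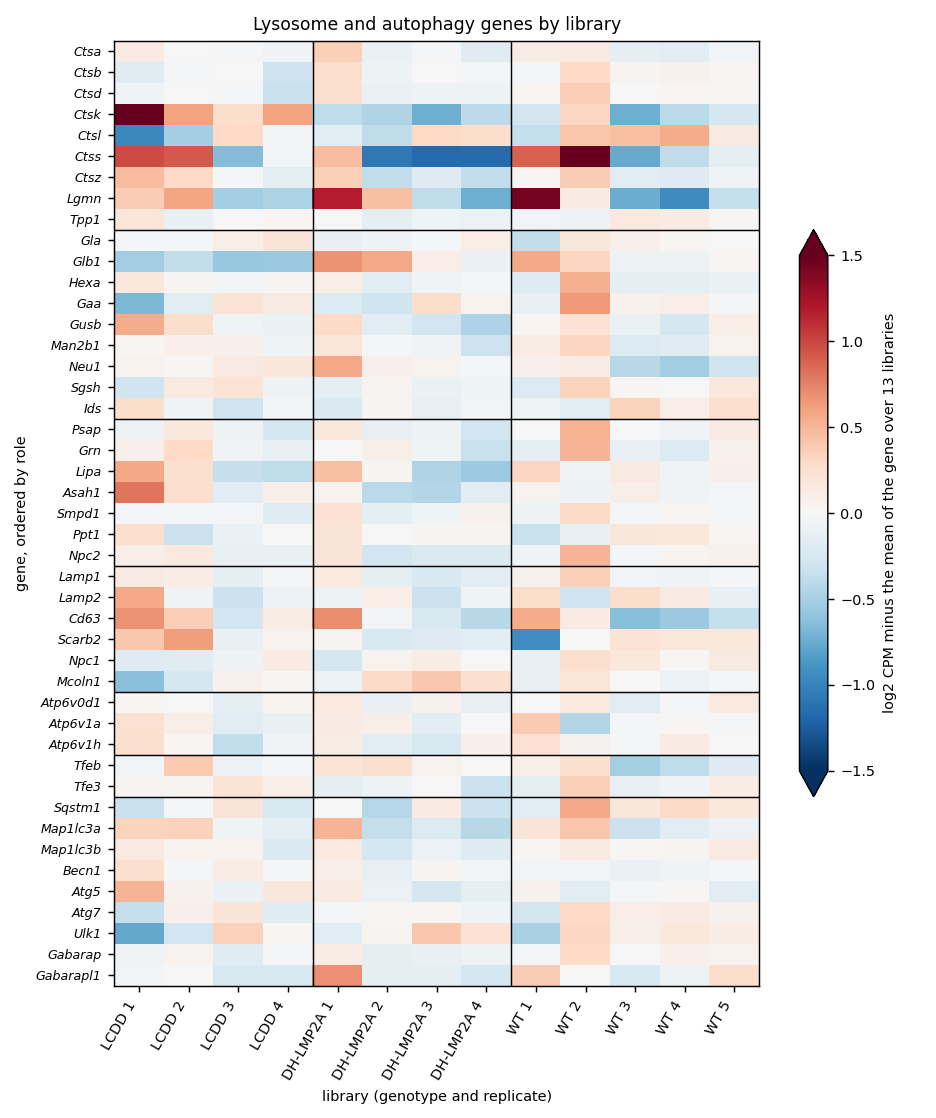
Log2 CPM of each of the 45 genes (rows, ordered by role) in each of the 13 libraries (columns), minus the mean of the gene over all libraries, with red above and blue below the mean and colours saturating at 1.5. Glb1 is below its mean in all 4 LCDD libraries, Ctsk is above it there, and WT 2 is red for many genes of several roles.

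A further 108 genes of the lysosome and autophagy, on 5 lists, were all tested. In LCDD against DH-LMP2A 1 of the 108 was called (0.926%, beside 2% of all genes, or 0.693% called lower). The gene was Atp6v0c, which encodes the proteolipid ring subunit of the V-ATPase, and it was lower in LCDD. It was at 15.2, 14.8, 17.99 and 13.2 CPM in LCDD, at 17.4, 40.9, 46.7 and 43.0 CPM in DH-LMP2A and at 25.6, 48.2, 29.4, 28.8 and 27.6 CPM in WT. DH-LMP2A 1 was within the LCDD range, and all WT libraries were above the LCDD libraries. The log2 fold change was -1.27 ± 0.28 SE in LCDD against DH-LMP2A (edgeR adjusted p = 0.0363), and within the 4 codes the difference was -0.19, -1.47, -1.37 and -1.70. Against WT it was -1.06 ± 0.27 SE (edgeR adjusted p = 0.0684), and it was called with the block (-1.06, adjusted p = 0.0280). The call against DH-LMP2A ended without LCDD 1, 2 or 4 (adjusted p of 0.0918, 0.0844 and 0.0963) and without DH-LMP2A 2, 3 or 4 (0.109, 0.115 and 0.116). The table also lists a pseudogene, Atp6v0c-ps1, and reads that match both are uncertain.

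With the block, 4 of the 108 (3.7%, beside 6.1% of all genes) were called in LCDD against DH-LMP2A, a share below the background, and each was lower in LCDD: Atp6v0c, Atp6v0a1, another V-ATPase membrane subunit, Ctsh, the aminopeptidase cathepsin H, and Galc, the galactosylceramidase. Their blocked log2 fold changes were -1.21 for Atp6v0c (edgeR adjusted p = 0.0116), -0.49 for Atp6v0a1 (0.0251), -0.88 for Ctsh (0.0121) and -0.88 for Galc (0.0260). The share of all genes called lower with the block was not taken, so the common direction is not read as a result. Without the block, Atp6v0a1, Ctsh and Galc were not called, at adjusted p of 0.511, 0.399 and 0.435. In LCDD against WT 0 of the 108 were called by edgeR, 9 (8.33%, beside 12%) had an unadjusted p below 0.05, and DESeq2 called 1, Atp6v0c. With the block 2 were called (1.85%, beside 3.2%), Atp6v0c lower and Tcirg1, an alternative V-ATPase membrane subunit, higher (log2 fold change 0.65, edgeR adjusted p = 0.0397). In DH-LMP2A against WT 0 of the 108 were called by edgeR, 10 (9.26%, beside 12.5%) had an unadjusted p below 0.05, and DESeq2 called 2, Galns and Pik3c3. With the block 1 was called (0.926%, beside 3.36%), Atg16l1, which helps attach LC3 to membranes (0.33, edgeR adjusted p = 0.0425). The median log2 fold change of the 108 was -0.03, -0.06 and -0.04 in the 3 comparisons in that order.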

How the data were processed

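Per the labels, libraries were made with a stranded poly(A) kit from RNA of bead-purified glomeruli and read from both ends. The authors deposited raw read counts per gene, in a table whose layout, per the file headers, is that of featureCounts. The submitters' processing notes name STAR 2.4.0a, featureCounts, Subread 1.5.0-p3 and DESeq2, with the builds mm10 and GRCm38. The strand setting, the treatment of reads that match several genes and the annotation release are not given in the sources used here. The deposited table also gives the summed exon length of each gene, used for levels per kilobase. Symbols and gene spans are those of the table. Columns were matched to samples by title, and 0 count columns were left over.

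All 13 libraries entered 1 quasi-likelihood fit in edgeR 4.0.16 (R 4.3.3), with TMM scaling, after filterByExpr with a minimum count of 10, and with 1 coefficient per genotype. Benjamini-Hochberg adjustment ran over the 16738 genes, and a gene is called below 0.05. CPM values are TMM-scaled, and a prior count of 2 was added for log2 CPM. Replicates are separate pools or mice per the labels, and the closest of 22 same-genotype pairs differed by a chi-square of 12.6 per degree of freedom.

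The title code pairs libraries: correlations of deviations from the genotype means between libraries of the same code were 0.593, 0.153, 0.488 and 0.450 for LCDD and DH-LMP2A (mean -0.14 between other pairs), 0.400, 0.127 and 0.304 for LCDD and WT, and 0.492, 0.160 and 0.458 for DH-LMP2A and WT. Alternatives were DESeq2 1.42.0, RLE scaling, other filters (none, or a mean of at least 5 CPM), fits to 2 genotypes, the code as a block, a proximal tubule covariate, and leaving out libraries.

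The genes, role lists, further pathway genes and marker lists were chosen with earlier results of these data known. Values in every library are given for genes called in any fit, the gene of each role with the highest level per length, and the 3 highest and 3 lowest fold changes of each comparison. Becn1 and the neighbours of Glb1 and Ctsk were named after their values were seen.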

Additional observations from a re-analysis of the deposited data

Results flagged for a closer look

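In each genotype and gene of the 45, the highest and lowest library were compared with the rest of that genotype. Of 135 such groups, 13 held a library that stood apart, where chance gives about 6.75 (1 in 20 groups).

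WT 2 was the high library for 5 genes. It had 561 CPM of Ctsd beside 433 to 443 in the other WT libraries, 128 CPM of Hexa beside 77.7 to 82.5, 193 CPM of Gaa beside 114 to 133, 189 CPM of Npc2 beside 128 to 139 and 227 CPM of Gabarap beside 181 to 193. WT 1 was the low library for 2 genes, with 198 CPM of Scarb2 beside 378 to 435 and 84.5 CPM of Ulk1 beside 126 to 147.

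DH-LMP2A 1 was the high library for 4 genes. It had 514 CPM of Ctsd beside 406 to 412 in the other DH-LMP2A libraries, 19 CPM of Ctss beside 6.05 to 6.48, 151 CPM of Npc2 beside 109 to 114 and 336 CPM of Gabarapl1, an LC3-like protein, beside 173 to 189. In LCDD, replicate 2 had 34.8 CPM of Tfeb beside 24.9 to 26.1, and replicate 4 had 61.6 CPM of Smpd1 beside 68.5 to 69.1.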

How the results depend on the processing

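Over all alternatives and named genes, 336 fold changes kept their direction and their side of the threshold, 25 lost a call, 8 gained one and 5 turned. Most of the 336 belong to genes that were not called in the main fit. A call could be lost only for Ctsk, Glb1 and Atp6v0c in LCDD against DH-LMP2A. These were called in 5 of 14, 6 of 15 and 8 of 15 alternatives. With the replicate block by title code, the number called among the 45 genes was 4 in LCDD against DH-LMP2A (2 without it) and 1 in LCDD against WT, and among the 108 further genes it was 4, 2 and 1 in LCDD against DH-LMP2A, LCDD against WT and DH-LMP2A against WT. The block changed no other call than those given above. Among the 45 in LCDD against DH-LMP2A, 1 was called with no filter, 0 with a mean of at least 5 CPM (Ctsk is not tested there), 0 with only these genotypes in the fit, and 0 to 1 when 1 library was left out. In LCDD against WT, 2 were called by DESeq2, 1 with the proximal tubule covariate and 0 to 1 when 1 library was left out. Among the 108, LCDD against DH-LMP2A gave 0 with only these genotypes, 3 with the tubule covariate and 0 to 1 when 1 library was left out, LCDD against WT gave 1 by DESeq2, with no filter and with only these genotypes, and 0 to 1 when 1 library was left out, and DH-LMP2A against WT gave 2 by DESeq2. Over all genes, calls in LCDD against DH-LMP2A, LCDD against WT and DH-LMP2A against WT numbered 334, 308 and 105 in edgeR, 811, 725 and 461 in DESeq2, 1021, 536 and 562 with the block, 153, 116 and 54 under the 5 CPM filter, and 902, 220 and 477 with the tubule covariate. With the tubule covariate, Cd63 turned to -0.057 in LCDD against WT and Glb1 to -0.19 in DH-LMP2A against WT. Without the single-mouse WT libraries these were -0.14 and -0.12, and Tfeb turned to -0.059 in DH-LMP2A against WT. None of these turned values was called, and the cause was not tested. The shares of counting error and of library number in the precision were not compared. Ctsk, the gene with the lowest level per length, had as few as 43 counts, in DH-LMP2A 3.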

Other observations

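Genes within 1 Mb of Glb1 and Ctsk were looked at after the values of both genes had been seen. Of 20 genes tested near Glb1, 2 were called lower in LCDD than in WT (beside 0.544% of all genes), Cmtm8, a membrane protein gene, and Gpd1l, which encodes a glycerol-3-phosphate dehydrogenase-like protein. Cmtm8 (chromosome 9, 114789345 to 114844152) was at 14.3, 9.07, 7.16 and 4.61 CPM in LCDD, at 56.5, 29.6, 24.7 and 16.0 CPM in DH-LMP2A and at 48.2, 42.4, 30.6, 34.2 and 38.4 CPM in WT. As with Glb1, all LCDD libraries were below all libraries of both other genotypes, a pattern whose share of all genes was not taken. Cmtm8 had a log2 difference of -1.85 ± 0.38 SE in LCDD against DH-LMP2A (edgeR adjusted p = 0.0271) and -2.14 ± 0.37 SE in LCDD against WT (0.0103). Gpd1l was at 67.4, 67.4, 56.2 and 61.5 CPM in LCDD and at 96.8, 97.9, 84.0, 89.6 and 98.1 CPM in WT, with a log2 difference of -0.56 ± 0.12 SE (edgeR adjusted p = 0.0266) and no call against DH-LMP2A (-0.28 ± 0.12 SE, 0.339). Other neighbours went the other way without a call. Crtap, next to Glb1, was at 145, 109, 101 and 105 CPM in LCDD and at 97.7, 64.3, 73.1 and 63.5 CPM in DH-LMP2A, above in every LCDD library (log2 difference 0.62 ± 0.17 SE, edgeR adjusted p = 0.0847). Trim71 had 0.76 ± 0.24 SE in LCDD against WT (edgeR adjusted p = 0.169). The median log2 fold change of the 20 genes was 0.04 in LCDD against DH-LMP2A and -0.02 in LCDD against WT.

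Of 77 genes tested near Ctsk, which lies beside Ctss on chromosome 3, 5 (6.49%) were called in LCDD against DH-LMP2A, beside 2% of all genes (0.693% lower), and all 5 were lower in LCDD, opposite to Ctsk: Tuft1, Gm15264, Tmod4 and the histone genes Hist2h4 and Hist2h2bb. Of the same 77 genes, edgeR called 0 in LCDD against WT, beside 1.84% of all genes, and 1 in DH-LMP2A against WT, Ciart, beside 0.627% (higher, log2 difference 3.24 ± 0.61 SE, edgeR adjusted p = 0.0334).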
